A study of Mus musculus with 6 samples.

Results

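The mitochondrial carriers of the Slc25 family were examined in the spinal cord of mice labelled Dhtkd1 null and of wild-type mice. The members were all array probes whose gene name starts with Slc25a, which gave 76 of the 41174 probes of the array and 46 genes. Of these, 42 genes had a probe bright enough to test, among 21437 genes tested in all. The tissue came from male C57BL/6 mice aged 8 weeks, 3 wild-type and 3 Dhtkd1 null samples, each hybridised to 1 single-colour Agilent array. Every group shared strain, sex, age and tissue, and differed by the labels in genotype alone. The labels do not describe the null allele, whether it acts in all tissues, or whether each sample is a separate animal. A p-value here therefore sets a difference against the spread between samples of a genotype, which may not be a spread between animals.

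Slc25 proteins are small carriers that pass metabolites across the inner mitochondrial membrane. Most exchange one solute for another, such as ADP for ATP, aspartate for glutamate, or malate for citrate, and so join the reactions of the matrix to those of the cytosol. Slc25a21 carries 2-oxoadipate, an intermediate of lysine and tryptophan breakdown, into the matrix, where the dehydrogenase complex that contains the Dhtkd1 protein uses it. In nervous tissue the family is best known for the ADP/ATP carriers and for the aspartate/glutamate carriers of the malate-aspartate shuttle, which moves reducing equivalents into mitochondria.

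A value here is the log2 processed signal of a probe minus the 75th percentile of its array, and a difference is null minus wild-type with its moderated standard error (SE). A gene is represented by its brightest usable probe, so signals of different genes are not compared with each other. Array records gave 78.4% to 82.0% of spots as well above background, the scanner software's call that a spot exceeds its local background. The 6 Hox genes of the spinal cord list and all markers of oligodendrocytes, astrocytes and neurons were well above background on all 6 arrays. Dhtkd1 was at -2.42, -3.12 and -2.92 in wild-type and -4.30, -3.39 and -3.99 in null samples, a difference of -1.07 (SE 0.29, limma adjusted p 0.453), so the null samples were lower and still had signal. The arrays lay on 2 slides, with wild-type sample 2 and all null samples on slide 1 and wild-type samples 1 and 3 on slide 2. A fit with slide as a block is therefore the comparison of 1 wild-type with 3 null samples. It takes its spread from the null samples and from the wild-type pair on slide 2, assumes that the lone wild-type sample varies like them, and cannot tell the slide apart from the choice of wild-type sample.

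The probes of 2 ADP/ATP carriers are shown because they were the only pair of member probes for different genes with an identity of at least 70% over at least 40 aligned bases, out of 2809 pairs compared. The next highest identity was 57.1%. The bases that differ within the 54 aligned bases are in capitals, and there are 9 of them, with 45 identical (83.3%). The Slc25a4 probe lies on the minus strand at chr8:47292828-47292887 and the Slc25a5 probe on the plus strand at chrX:34338475-34338534 (mm9).
Slc25a4: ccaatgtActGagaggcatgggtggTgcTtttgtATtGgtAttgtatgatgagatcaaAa
Slc25a5: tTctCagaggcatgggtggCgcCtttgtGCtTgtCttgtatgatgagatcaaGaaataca
How much of either transcript binds the other's probe was not tested, so the pair is reported as uncertain. The third sequence is the brighter of the 2 probes of Slc25a21, the 2-oxoadipate carrier, on the minus strand at chr12:57819248-57819307 (mm9).
Slc25a21: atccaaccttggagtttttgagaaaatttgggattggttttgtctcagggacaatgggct

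Slc25a21 was too dim to test. Its brighter probe read -7.34, -6.69 and -6.38 in wild-type and -6.89, -6.62 and -6.91 in null samples, and was well above background on 1 of the 6 arrays, a wild-type one. The genotypes overlapped, with the lowest and the highest array both wild-type. The dimmer probe, at chr12:57874629-57874688 (mm9), lay between -9.35 and -8.99 on every array and was never well above background. Without the brightness filter the brighter probe differed by -0.0048 (SE 0.26, limma adjusted p 0.995), a comparison of signals near background that gives no fold difference. Slc25a31, the ADP/ATP carrier of the testis, was well above background on 1 array, and Slc25a54 on 0 of 6 arrays.

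Slc25a48, a carrier without a settled substrate here, was the only untested gene whose genotypes did not overlap. It read -8.13, -7.83 and -8.55 in wild-type and -6.93, -5.98 and -6.73 in null samples. No wild-type array and 1 null array, null sample 2, were well above background. With 1 array of 6 well above background, these signals give no fold difference, and the gene was not tested in the main fit.

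**Figure D1:**
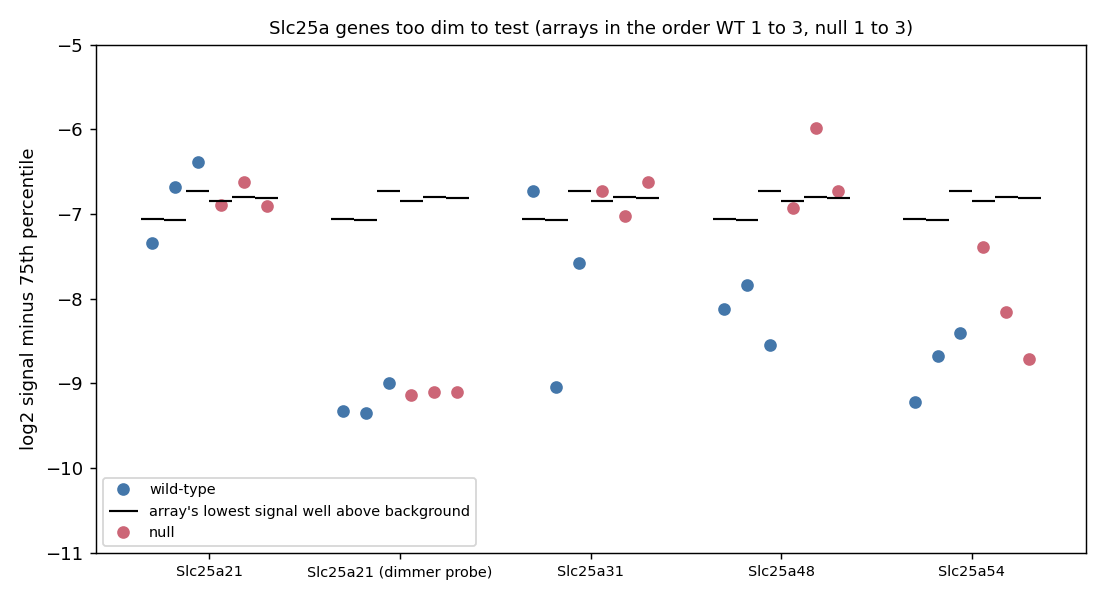
Log2 signal minus the array's 75th percentile for the 5 probes of the 4 Slc25a genes that could not be tested, with 1 point per array (blue wild-type, red null) and a black dash for the lowest signal called well above background on that array. Most points lie at or under the dashes, and for Slc25a48 the null samples sit above the wild-type samples with null sample 2 the highest at -5.98.

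Across the 42 tested carriers, 20 were higher and 22 lower in null samples, with a median difference of -0.0067 beside 0.017 over all genes. By limma 0 carriers passed an adjusted p of 0.05, as did 0 (0%) of all genes. At an unadjusted p under 0.05 there were 2 higher carriers, Slc25a13 and Slc25a14, against a background of 5.76% of all genes, and 2 lower carriers, Slc25a1 and Slc25a10, against 3.25%. Both counts are close to those backgrounds. In 6 carriers the genotypes did not overlap, where this held for 14.8% of all genes, which is again near the background. The 6 were Slc25a13, Slc25a14 and Slc25a22, higher in null samples, and Slc25a1, Slc25a10 and Slc25a28, lower.

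The differences were small. The median size was 0.07 on the log2 scale beside 0.11 over all genes, and the difference lay within 0.1 of 0 in 28 of 42 carriers (66.7%) beside 45.7% of all genes. The carriers also varied less between samples of a genotype, with a median within-group standard deviation (SD) of 0.09 beside 0.15. Of the 42 carriers, 0 differed by 1.5-fold or more, beside 1141 of all 21437 genes. For 23 carriers the 95% interval of the difference lay within 0.3 of 0 on both sides.

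The balance of directions varied between settings. With each array centred on its median, 15 carriers were higher and 27 lower, and the median was -0.056 beside -0.032 over all genes. With slide as a block, 16 were higher and 26 lower, and the median was -0.073 beside 0.0058 over all genes. Direction was the same under all 5 scalings for 34 carriers, and under a scaling it flipped for 8, namely Slc25a11, Slc25a24, Slc25a25, Slc25a34, Slc25a39, Slc25a43, Slc25a47 and Slc25a51. Wild-type sample 2 was the highest of the 6 arrays for 12 carriers and null sample 2 for 11, while wild-type sample 3 was the lowest for 15.

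**Figure D2:**
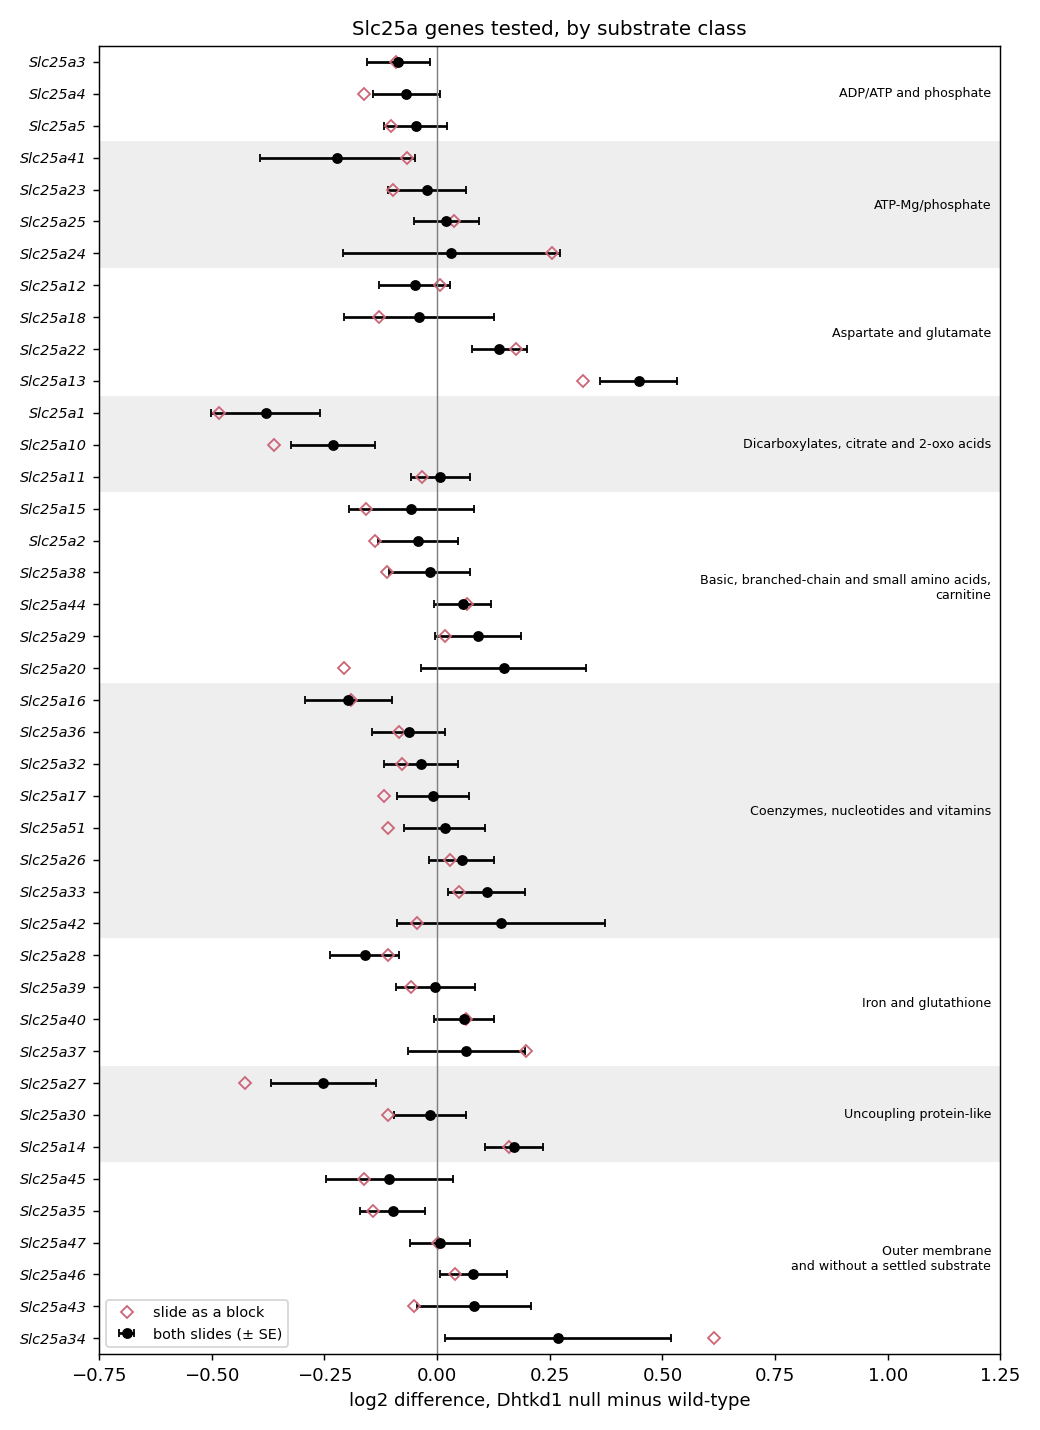
Log2 difference, Dhtkd1 null minus wild-type, of 41 of the 42 tested Slc25a genes in 9 substrate classes, as black points with the standard error (3 samples per group) and red diamonds for the fit with slide as a block. Most points lie within 0.1 of 0, Slc25a13 stands highest at 0.45 and Slc25a1 lowest at -0.38, and more diamonds than points fall on the left of 0.

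The carriers of aspartate and glutamate held the largest difference of the tested family. Slc25a13 (citrin), which exchanges mitochondrial aspartate for cytosolic glutamate in the malate-aspartate shuttle, read 0.14, 0.40 and 0.28 in wild-type and 0.74, 0.71 and 0.71 in null samples. All null samples were above all wild-type samples, and they lay close together (SD 0.02, n = 3, against 0.13 in wild-type). The difference of 0.45 (SE 0.09), or 1.36-fold with a 95% interval of 1.18 to 1.58, had an unadjusted p of 0.00223 and missed the adjusted threshold (limma adjusted p 0.341). Blocking on slide gave 0.32 (unadjusted p 0.0278, adjusted p 0.549). An unadjusted p under 0.05 was obtained in all 19 alternatives for this gene, where its adjusted p ran from 0.248 to 0.753. The exact permutation p was 0.1, the smallest that 3 against 3 samples allow. The gene has 1 probe, at chr6:5991482-5991541 (mm9), so no other probe bears on it.

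Slc25a12 (aralar), the aspartate/glutamate carrier known as the main form in neurons, differed by -0.05 (SE 0.08) with a 95% interval of -0.24 to 0.14. All 3 of its kept probes were lower in null samples, by -0.17 to -0.03. Slc25a22, a glutamate carrier, read 0.39, 0.32 and 0.36 in wild-type and 0.51, 0.47 and 0.50 in null samples. The null samples were all higher and the spread within each genotype was narrow, but the difference of 0.14 (SE 0.06) had an unadjusted p of 0.0674 (limma adjusted p 0.574). Slc25a18, the other glutamate carrier, differed by -0.04 (SE 0.17), and wild-type sample 3 and null sample 3 were both low for it.

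Markers of immune cells were mostly higher in null samples, as Slc25a13 and Slc25a22 were, and so were those of other lists. Higher were 7 of 7 adipocyte, 4 of 4 red blood cell, 3 of 3 sensory ganglion neuron, 8 of 9 skeletal muscle and 5 of 8 neuron markers. So were 6 of 6 Hox genes, while oligodendrocyte, astrocyte, Schwann cell, motor neuron and meningeal fibroblast markers were mostly lower. With slide as a block the median went from 0.87 to -0.74 for adipocyte and from 0.67 to -0.64 for skeletal muscle markers. It went from 0.11 to -0.06 for Hox genes and from -0.09 to 0.03 for astrocyte markers. It was 1.10 for red blood cell, 0.85 for sensory ganglion neuron and 0.08 for neuron markers, beside 0.72, 0.95 and 0.06. It was 0.05 for microglia and 1.00 for leukocyte markers, beside 0.14 and 1.09. Of 6 microglia markers, 5 were higher, 2 of which had an unadjusted p under 0.05, and the list mean relative to its 6-array mean was -0.38, 0.05 and 0.09 in wild-type and 0.02, 0.14 and 0.09 in null samples. Of 7 leukocyte markers, 6 were higher, with list means of 0.05, -0.43 and -0.84 in wild-type and 0.61, 1.15 and -0.55 in null samples. The microglia and leukocyte lists overlapped between genotypes in these means, and the part of any list in the carrier differences was not tested.

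Of the 4 enzymes that complete the malate-aspartate shuttle, 0 had an unadjusted p under 0.05 in either direction, and their median was 0.02. Got1, the cytosolic aspartate aminotransferase, differed by 0.08 (SE 0.13) and Mdh1, the cytosolic malate dehydrogenase, by 0.05 (SE 0.08).

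The signals of the citrate and dicarboxylate carriers lay lower in null samples, and neither passed the adjusted threshold. Slc25a1, which exports citrate that the cytosol can turn into acetyl-CoA for lipid synthesis, read 1.91, 2.23 and 2.23 in wild-type and 1.87, 1.72 and 1.63 in null samples. The null samples all lay below, although null sample 1 was only just under wild-type sample 1. The difference was -0.38 (SE 0.12), or 1.30-fold lower with a 95% interval of 1.06 to 1.60 (unadjusted p 0.0210, limma adjusted p 0.506). Blocking on slide gave -0.48. Slc25a10, which exchanges malate or succinate for phosphate, read 1.67, 1.85 and 1.64 in wild-type and 1.61, 1.42 and 1.45 in null samples. Null samples were again all lower, with null sample 1 nearest to the wild-type samples. Its difference of -0.23 (SE 0.09) lay at the edge of the unadjusted threshold (p 0.0496, limma adjusted p 0.554), and blocking on slide gave -0.36. Slc25a11, the 2-oxoglutarate/malate carrier of the malate-aspartate shuttle, differed by 0.01 (SE 0.06).

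Marker lists that were lower in null samples are given beside this pair. Of 9 oligodendrocyte markers, 7 had the lower mean in null samples and 2 had an unadjusted p under 0.05 in that direction. Their median was -0.16, and -0.55 with slide as a block. The mean of the list relative to its 6-array mean was -0.21, 0.31 and 0.16 in wild-type and 0.04, -0.18 and -0.12 in null samples, with wild-type sample 2 the highest, as for Slc25a10. Wild-type sample 1 was the lowest array for that list, under every null sample, while for Slc25a1 and Slc25a10 it lay above every null sample. All of 5 Schwann cell, 6 motor neuron and 6 meningeal fibroblast markers had the lower mean in null samples. Their medians were -0.55, -0.15 and -0.83, and with slide as a block 0.88, -0.83 and -0.14. The genotypes overlapped in the per-array means of each of these lists. The Schwann cell list mean was 2.17, -0.93 and 0.11 in wild-type and -1.56, 0.26 and -0.05 in null samples. Wild-type sample 1 was the highest array for that list. The part of these markers in the carrier differences was not tested. In a whole cord, fewer cells of a type and less RNA per cell cannot be told apart.

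Promoters are shown for Slc25a1, Slc25a10 and Slc25a13, which were among the 4 carriers at an unadjusted p under 0.05, and the choice was made after their values were seen. RefSeq promoters (GRCm38.p6, 300 bases around each gene's start) were found for 35 of the 46 genes, 44 promoters in all. Capitals mark matches, on either strand and also where motifs overlap, to the GC box (GGGCGG), the CCAAT box (CCAAT) and the E-box (CACGTG). The Slc25a1 promoter is at chr16:17928170-17928469 (minus strand), that of Slc25a10 at chr11:120491587-120491886 (plus strand) and that of Slc25a13 at chr6:6217124-6217423 (minus strand).
Slc25a1 promoter: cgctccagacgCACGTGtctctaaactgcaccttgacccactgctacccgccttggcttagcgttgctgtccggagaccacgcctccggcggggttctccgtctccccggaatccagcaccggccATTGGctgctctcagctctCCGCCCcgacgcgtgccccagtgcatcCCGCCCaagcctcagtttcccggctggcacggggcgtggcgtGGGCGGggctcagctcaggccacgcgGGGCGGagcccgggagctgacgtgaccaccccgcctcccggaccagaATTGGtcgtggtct
Slc25a10 promoter: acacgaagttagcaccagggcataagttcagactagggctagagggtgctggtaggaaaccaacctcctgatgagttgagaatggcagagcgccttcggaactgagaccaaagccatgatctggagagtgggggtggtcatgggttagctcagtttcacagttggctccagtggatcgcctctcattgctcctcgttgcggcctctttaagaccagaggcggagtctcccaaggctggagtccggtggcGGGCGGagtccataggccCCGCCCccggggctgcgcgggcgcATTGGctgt
Slc25a13 promoter: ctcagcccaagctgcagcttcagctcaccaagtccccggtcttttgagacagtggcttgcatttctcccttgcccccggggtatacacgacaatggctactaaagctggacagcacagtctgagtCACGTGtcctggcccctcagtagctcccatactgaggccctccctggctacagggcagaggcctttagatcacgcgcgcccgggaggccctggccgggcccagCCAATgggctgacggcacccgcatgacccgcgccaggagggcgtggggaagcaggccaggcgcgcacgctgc
The GC box letters occurred 4 times in the Slc25a1 window, 2 times in that of Slc25a10 and 0 times in that of Slc25a13. Slc25a14, the other of the 4 carriers and higher in null samples, is not printed. Its windows 1, 2 and 3, which overlap, held the GC box letters 1, 1 and 2 times. Over all carriers the GC box letters were in 81.8% of the 44 promoters, and in 35.7% of all 32851 promoters of the table. The CCAAT box was in 47.7% against 37.4%, and the E-box in 18.2% against 7.15%. The E-box was present in the Slc25a1 and Slc25a13 windows and in windows 1 and 2 of Slc25a14. The letters TCACCCCAC, a sterol element, were in 0 carrier promoters and in 0.551% of all promoters, and the letters TATAAA were in 4.55% against 13.6%. The core of NRF1 sites (GCGCATGC) was in 4.55% against 2.71% and the cyclic AMP element (TGACGTCA) in 4.55% against 1.79%. These shares are descriptions of the letters in the windows and were not tested.

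**Figure D3:**
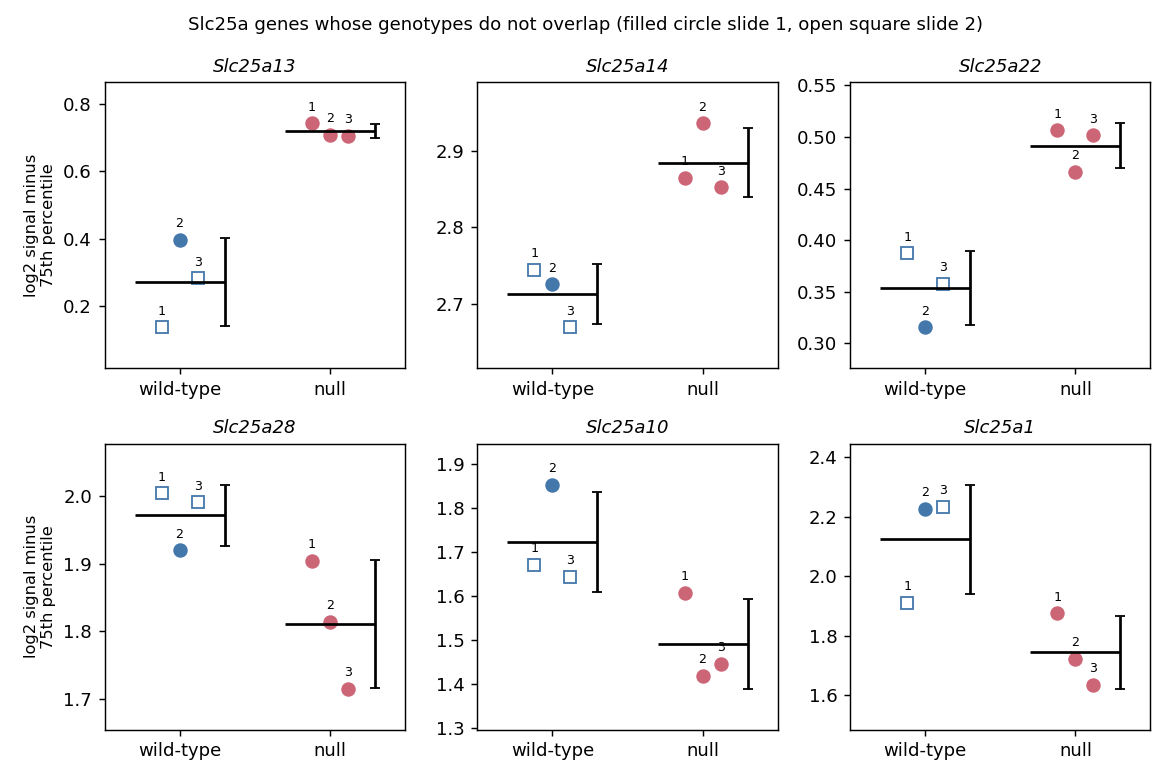
Log2 signal minus the array's 75th percentile on each array for the 6 tested Slc25a genes whose genotypes did not overlap, with the sample number at each point, filled circles for slide 1, open squares for slide 2, and a bar with the mean and SD (n = 3). Each panel has its own axis, which does not start at 0. The null samples lie above the wild-type samples for Slc25a13, Slc25a14 and Slc25a22 and below them for Slc25a28, Slc25a10 and Slc25a1.

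Among the carriers related to the uncoupling proteins, Slc25a14 had the higher signal in null samples, and Slc25a27 the lower mean at its brightest probe. Slc25a14 read 2.74, 2.73 and 2.67 in wild-type and 2.86, 2.94 and 2.85 in null samples. The genotypes did not overlap, and the difference of 0.17 (SE 0.06) had an unadjusted p of 0.0396 (limma adjusted p 0.534). Its dimmer probe differed by 0.30 (SE 0.20) in the same direction, but its genotypes overlapped. That probe read -3.15, -3.31 and -3.90 in wild-type and -3.14, -3.17 and -3.15 in null samples, with wild-type sample 3 the lowest. For the gene, the unadjusted p stayed under 0.05 in 7 of 19 alternatives. Slc25a27, found mainly in brain, differed by -0.25 (SE 0.12, unadjusted p 0.0748, limma adjusted p 0.587), and by -0.43 with slide as a block. Its genotypes overlapped, and its kept probes disagreed in direction, with the second at -0.27 (SE 0.17) and the third at 0.02 (SE 0.12). Slc25a30 differed by -0.02 (SE 0.08).

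The uncoupling proteins and the carrier-like Mtch proteins belong to the same family under other names. Of the 5 tested, 0 had an unadjusted p under 0.05. Ucp1, the uncoupling protein of brown fat, differed most, by 1.78 (SE 1.17), with wild-type values of -6.13, -2.33 and -4.88 and null values of -3.43, -0.97 and -3.60. It was highest in null sample 2 and in wild-type sample 2. The adipocyte markers, a list of 7 that includes Ucp1, were highest on the same arrays, with a mean relative to the 6-array mean of -1.53, 1.11 and -0.72 in wild-type and -0.28, 1.99 and -0.56 in null samples, and with slide as a block Ucp1 differed by -0.34. The part of these markers in the Ucp1 difference was not tested. Ucp3, known from skeletal muscle, differed by -0.25 (SE 0.18).

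The carriers that serve ATP synthesis showed small differences. Slc25a3, which brings phosphate into the matrix, differed by -0.09 (SE 0.07), Slc25a4, the ADP/ATP carrier of heart and muscle, by -0.07 (SE 0.07), and Slc25a5, the more widely expressed one, by -0.05 (SE 0.07). Each was lower under all 5 scalings and with slide as a block, and 0 of the 3 had an unadjusted p under 0.05. The 95% intervals ran from -0.26 to 0.09 for Slc25a3, from -0.25 to 0.11 for Slc25a4 and from -0.22 to 0.12 for Slc25a5. Slc25a4 and Slc25a5 have the similar probes printed above. Among the ATP-Mg/phosphate carriers, which adjust the adenine nucleotide content of the matrix, Slc25a23 (-0.02, SE 0.09) and Slc25a25 (0.02, SE 0.07) differed little. Slc25a24 (0.03, SE 0.24) and Slc25a41 (-0.22, SE 0.17) varied more between samples. Slc25a41 adjoins Slc25a23 on chromosome 17, and Slc25a24 adjoins Slc25a54 on chromosome 3.

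Among carriers of amino acids and carnitine, 3 were higher, 3 lower and 0 had an unadjusted p under 0.05. The ornithine carriers Slc25a2 and Slc25a15 differed by -0.04 (SE 0.09) and -0.06 (SE 0.14). Slc25a29, for basic amino acids, differed by 0.09 (SE 0.10), Slc25a38, for glycine, by -0.02 (SE 0.09), and Slc25a44, for branched-chain amino acids, by 0.06 (SE 0.06). Slc25a20, which exchanges acylcarnitine for carnitine so that fatty acids can be oxidised, differed by 0.15 (SE 0.18) and by -0.21 with slide as a block. Skeletal muscle markers, 9 in all with 8 higher in null samples, had a list mean of -0.39, 1.03 and -1.53 in wild-type and 0.16, 0.45 and 0.28 in null samples. Wild-type sample 2 was the highest and wild-type sample 3 the lowest array for that list and for Slc25a20, and the part of the markers in its values was not tested.

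Few other genes of these routes had an unadjusted p under 0.05. In the carnitine shuttle, 0 of 6 genes did, with Cpt1c, the brain form of carnitine palmitoyltransferase, at 0.16 (SE 0.07, unadjusted p 0.0566) and Slc22a5, the carnitine importer of the plasma membrane, at -0.24 (SE 0.12). The genotypes did not overlap in 3 of the 6, beside 14.8% of all genes. These were Cpt1c and Cpt2 (0.15, SE 0.10), higher in null samples, and Slc22a5, lower. With slide as a block Cpt1c, Cpt2 and Slc22a5 differed by 0.13, 0.06 and -0.06. In the urea cycle and ornithine list, 0 of 8 had an unadjusted p under 0.05, with Arg2 at 0.33 (SE 0.20) and Odc1 at -0.13 (SE 0.09). In the 2-oxoadipate route, beside Dhtkd1 itself, the lysine-degrading enzyme Aass had a difference of 0.30 (SE 0.12, unadjusted p 0.0465, limma adjusted p 0.544). Of the 7 genes of that list 5 were lower, Dhtkd1 among them, beside 45.5% of all genes, and the list median was -0.02. The Aass samples overlapped between genotypes, and blocking on slide gave 0.15.

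The coenzyme, nucleotide and vitamin carriers gave 0 of 9 at an unadjusted p under 0.05. Slc25a16, linked to coenzyme A, differed by -0.20 (SE 0.10, unadjusted p 0.0891), and Slc25a42, which carries coenzyme A, by 0.14 (SE 0.23). The pyrimidine nucleotide carriers Slc25a33 and Slc25a36 differed by 0.11 (SE 0.09) and -0.06 (SE 0.08). Slc25a17 of peroxisomes differed by -0.01 (SE 0.08), Slc25a26, for S-adenosylmethionine, by 0.05 (SE 0.07), Slc25a32, for folate and flavin, by -0.04 (SE 0.08), and Slc25a51, for NAD, by 0.02 (SE 0.09).

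Of the mitoferrins, which bring iron into mitochondria, Slc25a28 had the lower signal in null samples on every array. Slc25a28 read 2.00, 1.92 and 1.99 in wild-type and 1.90, 1.81 and 1.71 in null samples. The genotypes did not overlap, though null sample 1 was just under wild-type sample 2. Its difference of -0.16 (SE 0.08) had an unadjusted p of 0.0837 (limma adjusted p 0.593), and blocking on slide gave -0.11. Slc25a37, the mitoferrin of red cell precursors, differed by 0.06 (SE 0.13), and the glutathione carriers Slc25a39 and Slc25a40 by -0.0039 (SE 0.09) and 0.06 (SE 0.07). Among 9 genes of mitochondrial iron use, Alas2, the haem synthesis enzyme of red cell precursors, differed by 0.72 (SE 0.24, unadjusted p 0.0234, limma adjusted p 0.513) and the other 8 gave no unadjusted p under 0.05. Red blood cell markers, 4 tested with Alas2 among them, were all higher in null samples, with list means of 0.38, -0.81 and -0.46 in wild-type and 0.44, 0.39 and 0.06 in null samples. The part of these markers in the Alas2 difference was not tested.

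The remaining carriers have no settled substrate or lie in the outer membrane. Slc25a46, an outer membrane protein of mitochondrial dynamics, differed by 0.08 (SE 0.07). Slc25a34 differed by 0.27 (SE 0.25) with only 1 wild-type and 2 null arrays well above background, the single tested member that was not so on all 6 arrays. Slc25a35 differed by -0.10 (SE 0.07), Slc25a43 by 0.08 (SE 0.13), Slc25a45 by -0.11 (SE 0.14) and Slc25a47, which adjoins Slc25a29 on chromosome 12, by 0.01 (SE 0.07). None of these 6 had an unadjusted p under 0.05.

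Proteins that act around the carriers gave no call. Among 12 other gates of mitochondrial metabolites, 0 had an unadjusted p under 0.05 (median -0.02), with the pyruvate carrier subunits Mpc1 and Mpc2 at -0.20 (SE 0.11) and -0.08 (SE 0.07). Among 12 genes for the import and insertion of carriers, 0 did (median -0.02), with Timm10b at -0.12 (SE 0.07) and Tomm20 at -0.18 (SE 0.12). Among 6 regulators of mitochondrial genes, 0 did (median 0.02), with Ppargc1b at 0.12 (SE 0.10) and Gabpa at 0.09 (SE 0.07).

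Single probes were compared where a gene had several. Of the 69 kept member probes, those of 20 genes shared a gene, and all kept probes had the same direction in 14 of these genes and differed in 6. The median spread between probes of a gene was 0.13 on the log2 scale. Fitted one by one, 4 member probes were higher and 2 lower at an unadjusted p under 0.05, where 5.35% of all 33191 kept probes were higher and 2.84% lower, and 0 passed the adjusted threshold (smallest limma adjusted p 0.350).

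The smallest adjusted p came from the dimmer probe of Slc25a35, at chr11:68785799-68785858 (mm9). It read -2.71, -2.51 and -2.49 in wild-type and -3.05, -3.05 and -3.10 in null samples, with no overlap and a difference of -0.50 (SE 0.09). The brighter probe, at chr11:68787730-68787789, differed by -0.10 (SE 0.08), so the 2 probes differed in size and not in direction. The dimmer probe of Slc25a24 read -6.44, -6.04 and -6.20 in wild-type and -6.03, -5.69 and -5.73 in null samples, a difference of 0.41 (SE 0.14) beside 0.03 at the brighter one. The third probe of Slc25a40 differed by 0.24 (SE 0.08) beside 0.06 at its 2 brighter probes. One probe of Slc25a25 read -1.87 in wild-type sample 3 and between -0.21 and 0.32 elsewhere. Its difference was 0.49 (SE 0.58), beside 0.02 and -0.01 at the 2 other probes.

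**Figure D4:**
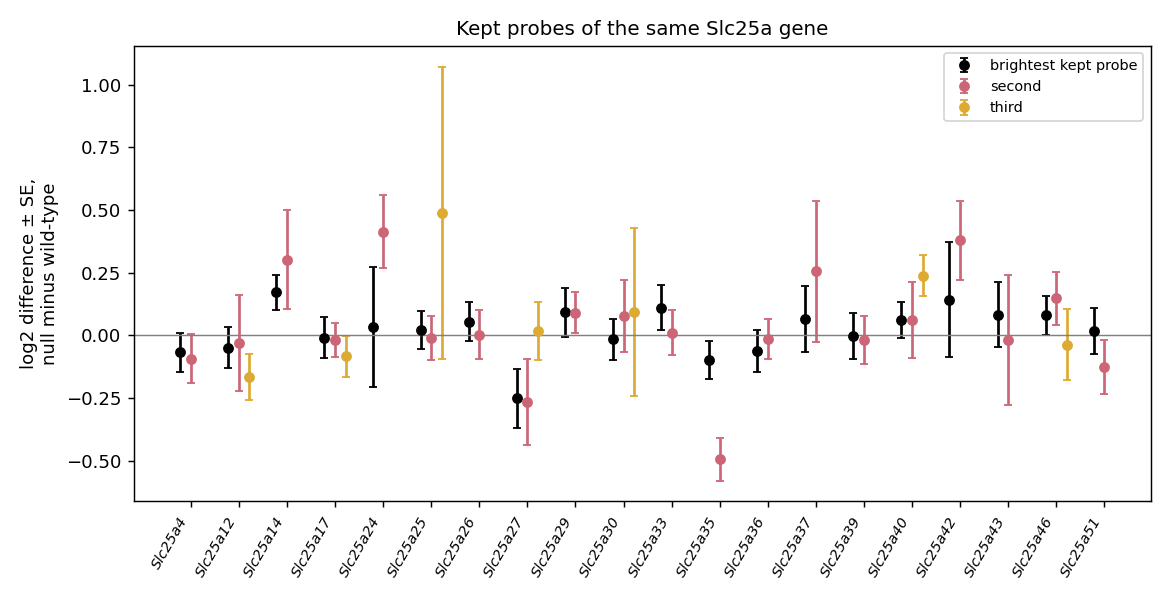
Log2 difference, null minus wild-type, with its standard error, for each kept probe of the 20 Slc25a genes with several kept probes, black for the brightest, red for the second and yellow for the third. In 14 of the 20 genes all probes lie on the same side of 0, and the second probes of Slc25a35 (-0.50) and Slc25a24 (0.41) stand apart from the brightest probe of the gene.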

How the data were processed

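Total RNA of 3 wild-type and 3 Dhtkd1 null spinal cords was labelled with Cy3 and hybridised to 1 array each. Per the file headers, the deposited processed intensity came from Feature Extraction 10.7.3.1 on array design 014868 (mm9 positions) and was background-subtracted within each array, with no normalization between arrays. The authors' deposited log2 table, whose method is not given in the sources used here, had columns of equal median (7.22) and served as an alternative only.

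Values are log2 intensity minus the array's 75th percentile over non-control probes, with outlier spots left out and spots of a probe averaged. A probe was kept when well above background on 3 or more of 6 arrays, and a gene was its brightest kept probe. Null was compared with wild-type by limma 3.58.1 (R 4.3.3, 2-sided, Benjamini-Hochberg over 21437 genes), which was tested on simulated data. Arrays have no read depth, and their number limits the precision. Symbols come from RefSeq by accession (27761 probes), as current names (5531), by synonym (460) or from the file (7422), while members were taken by the file's name. RefSeq lists 47 Slc25a genes, of which 46 have a probe here.

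Every member is named except 1, which is not reported here and stays in the counts, with values on all arrays for Slc25a21, for members at an unadjusted p under 0.05 and for those without overlap. From each companion list the genes at an unadjusted p under 0.05, or otherwise the 2 of smallest p, are named. Genes named beyond that (Slc25a48 with its array values, Cpt2, and single probes of Slc25a14, Slc25a24, Slc25a25, Slc25a35 and Slc25a40) were chosen after their values were seen. The members and lists were chosen with earlier results of these data known. Alternatives were 4 scalings or background corrections, 2 brightness filters, the mean of probes, outlier spots kept, slide as a fixed or random block, slide 1 alone, a replicate block, trended and robust variance, and each sample left out.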

Additional observations from a re-analysis of the deposited data

How the results depend on the processing

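In no alternative did a Slc25 carrier pass the adjusted threshold by limma (0 in all). The 6 carriers without overlap kept their direction in every alternative. Where samples were left out or the same values were refitted, the lack of overlap fixes that direction by construction, so it adds no support. Slc25a21 was not tested, so it has no alternatives beyond the fit without a filter. The carrier counts given below for that fit cover the 42 tested carriers and leave out the dim ones. Among the dim ones, Slc25a48 was higher there at an unadjusted p of 0.00246 (limma adjusted p 0.443), from signals near background. The count of carriers higher at an unadjusted p under 0.05 was 2, and it was 1 with median centring, without a filter, with the mean of probes, with slide as a fixed block and on slide 1 alone. It was also 1 to 1 with any 1 sample left out. The count of lower carriers was 2, beside 697 of all 21437 genes. It was 4 with normexp (886 of all genes), 4 with trended and robust variance (782) and 1 of the 42 carriers without a filter (742 of all 27339 genes). It was 0 to 3 with 1 sample left out: 0 without wild-type sample 2 or 3 or null sample 2 or 3, and 3 without wild-type sample 1 or null sample 1. Slc25a1 stayed under 0.05 in 14 of 19 alternatives and Slc25a10 in 11. The count without overlap was 6, became 28 on slide 1 alone and 8 to 14 with 1 sample left out, where fewer samples make non-overlap easier by construction. The share of all genes without overlap was given for the main fit only, so the counts in these settings have no background beside them. The median of -0.0067 was -0.056 with median centring, where that of all genes was -0.032. It was -0.073 with slide as a fixed block and on slide 1 alone, where that of all genes was 0.0058. With 1 sample left out it ran from -0.022 to 0.013. For the changes other than non-overlap the cause was not tested. Over all genes the adjusted count was 0 to 3, and the consensus correlation within slides was 0.011.

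The labels number samples 1 to 3 in both genotypes and name no pairing. Deviations of same-numbered samples correlated at -0.02, -0.11 and 0.33, and those of differently numbered samples at -0.24 to 0.27. With so few samples these values cannot decide whether the numbers pair them, and the main fit used no pairing. With a replicate block, 1 carrier was higher and 0 were lower at an unadjusted p under 0.05. Dim probes limit Slc25a21, Slc25a31, Slc25a48 and Slc25a54, whose signals lie near background.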
